A study of Schizosaccharomyces pombe with 4 samples.

Results

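Small nucleolar RNA (snoRNA) and small nuclear RNA (snRNA) genes of the fission yeast Schizosaccharomyces pombe were taken as every gene whose identifier in the deposited table begins with SPSNORNA or SPSNRNA. There were 60 of them among 6986 genes, 53 with the first prefix and 7 with the second. Total RNA was sequenced from 2 libraries of set2d cells (strain SPKK1227, lacking set2, the histone H3 lysine-36 methyltransferase that travels with elongating RNA polymerase II) and 2 libraries of wild-type (WT) cells (strain WT972). Both strains were untreated, grew asynchronously in log phase in YEA medium at 30 °C, and were compared to see how the transcriptome differs without Set2. The labels do not say whether the 2 libraries of a strain came from separate cultures, so the p-values may measure technical spread alone. Which other markers SPKK1227 carries, and whether it is 1 clone, is not stated in the labels. In a bulk culture, a change in the share of cells that hold an RNA and a change in RNA per cell cannot be told apart.

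snoRNAs guide the chemical modification of ribosomal RNA in the nucleolus. Box C/D snoRNAs carry the short C and D motifs and direct 2′-O-methylation with the protein fibrillarin, and box H/ACA snoRNAs end in an ACA-containing tail and direct pseudouridylation with the protein dyskerin, called Cbf5 in yeast. A few, such as U3, U14 and snR30 (U17 in animals), instead help to cut the ribosomal RNA precursor on the way to the small subunit's 18S RNA. The U1, U2, U4, U5 and U6 snRNAs form the core of the spliceosome. Yeast snoRNAs are made from their own promoters, from precursors that hold several snoRNAs, or from introns of protein genes, and most are trimmed from a longer transcript after it is made.

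The genes fell into classes that could be formed without the expression values. RefSeq's products named 19 of the genes as box H/ACA, to which snR30 was added, giving 20. Leaving out the U3 genes, another 29 held CTGA, the box D motif, within their last 20 bases on the gene's strand and were not box H/ACA by annotation. The other 11 were U3 and its second copy U3B (snu3 and snu32), the 5 spliceosomal snRNAs, and 4 snoRNAs with neither property (sno16, snoR02, snoR54b and snoU24). The box H/ACA genes were 142 to 488 bases long with a median of 170, and the box D genes were 73 to 112 bases long with a median of 84. The 488 bases are those of snR90 with an annotated intron. Without the intron snR90 has 302 bases, the length used for its level per 100 bases. TGATGA, the box C motif, stood in the first 30 bases of 18 of the 29 box D genes (62.1%), in 0 of the 20 box H/ACA genes, and in 76 of 12544 other annotated genes (0.606%). CTGA stood in the last 20 bases of 566 of those other genes (4.51%), and ACA exactly 3 bases from the end was present in 10 of the 20 box H/ACA genes (50%) and 229 of the others (1.83%). These are matches of letters on the gene's strand and not mapped sites. U14 shows both motifs of the C/D type, here with TGATGA and CTGA in capitals, 5′ to 3′, as RefSeq gives the gene in ASM294v3 on the plus strand of chromosome II.
snoU14: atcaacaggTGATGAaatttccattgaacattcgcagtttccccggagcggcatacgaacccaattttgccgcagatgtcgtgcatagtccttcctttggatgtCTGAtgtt

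The deposited values are log2 of normalized counts with a floor of 10 (no value lies below it), and levels here are given back on the count scale. The 4 libraries had 5347 and 5518 as the median gene's level in set2d, against 5175 and 5050 in WT. The deleted gene itself, set2, read 2257 and 1448 in set2d, against 10503 and 8665 in WT (log2 change, set2d minus WT, −2.40, SE 0.22, adjusted p = 0.00041, limma), so both set2d libraries were lower but not at the floor. Total counts are not given. Low values in the set2d libraries fell on steps of 1.06 (set2d 1) and 0.547 (set2d 2) for 100% of the genes between 10.5 and 60, with a tolerance of 0.012. If a step is 1 read, the floor corresponds to 9.41 and 18.3 reads, and a level of 100 carries a counting error of 10.3% and 7.40%. Between 200 and 400, a step of 1.06 still held for 100% of the genes in set2d 1. In set2d 2 the best step there was 0.560, and it held for only 52.3%. For set2d 2 the reading of a step as 1 read therefore rests on lower levels. WT values gave no step that held for all genes. In WT 1, 93.6% of the genes between 10.5 and 60 fell on steps of 1.38 (1.74% expected by chance). Between 60 and 120 and between 200 and 400, however, the best steps of WT 1 were 0.549 and 1.16. In WT 2 the best step between 10.5 and 60 held for 62.4%. The depth of the WT libraries is therefore not known.

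Nearly all of the genes were detected, at low levels. Above the floor were 55 of the 60 in set2d 1 (91.7%) and 54 in set2d 2 (90.0%), against 53 in WT 1 (88.3%) and 54 in WT 2 (90.0%). Over all 6986 genes the shares above the floor were 94.7% and 94.8% in set2d, against 94.4% and 94.2% in WT. The genes with an SPSNORNA identifier accounted for 50 and 50 of these in set2d, against 50 and 52 in WT, and those with an SPSNRNA identifier for 5 and 4, against 3 and 2. Levels over 100 were reached by 32 and 33 genes in set2d, against 35 and 34 in WT, and levels over 1000 by 4 and 3, against 3 and 3. The median of the 60 levels was 128.0 and 128.3 in set2d, against 122 and 127 in WT. Per 100 bases of gene, the median was 108 over the 60 genes and 298 over the 6840 genes matched to the reference, and 12 of the 60 lay above 298. Of the genes, 50 were above the floor in all 4 libraries, 2 in 3 libraries, 4 in 2 libraries and 2 in a single library. Those in a single library were snu2 (19.1 in set2d 1) and snR88 (17.4 in WT 2), and the U1 and U5 genes were at the floor everywhere.

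**Figure D1:**
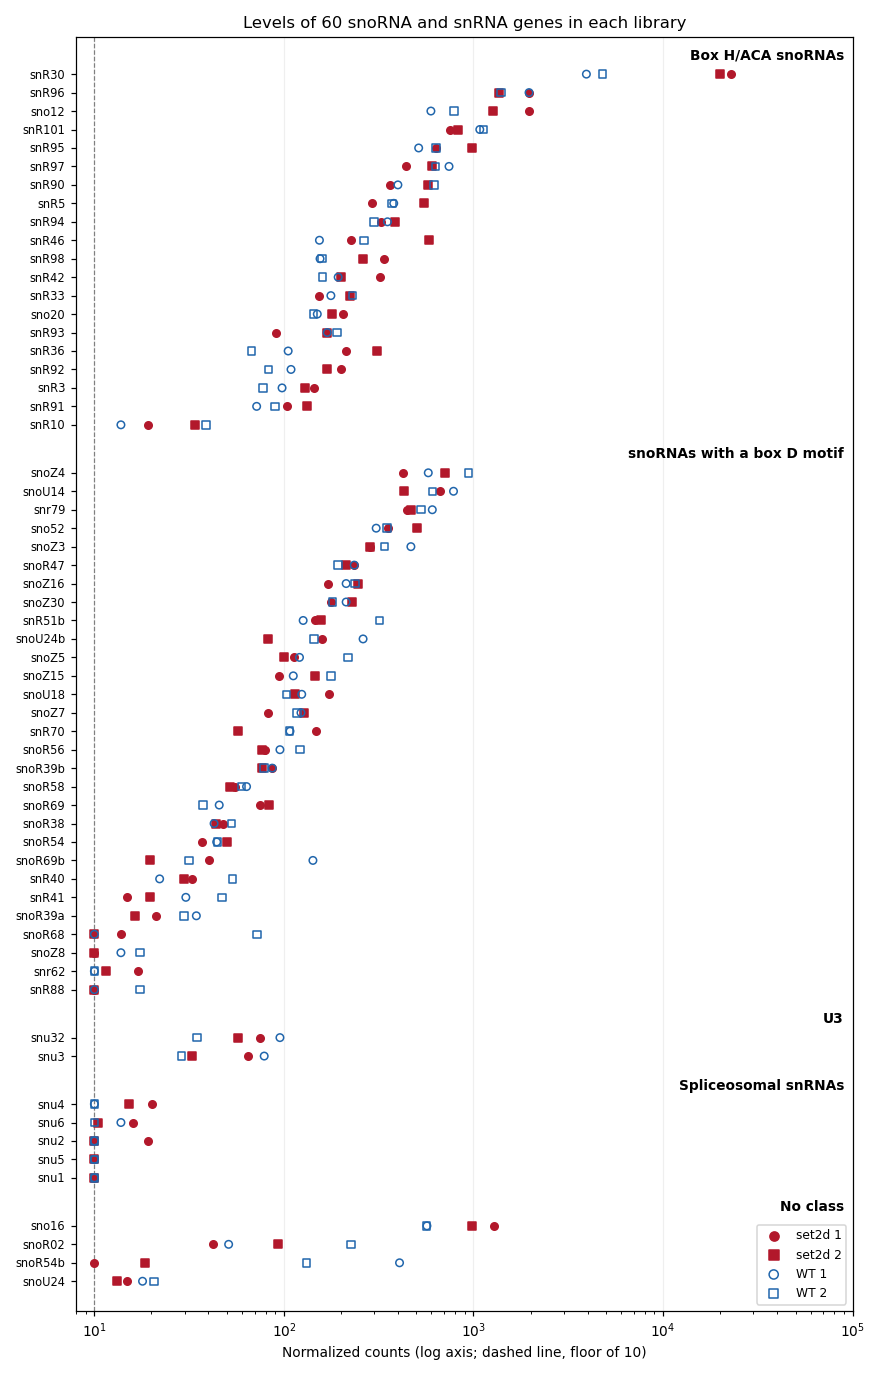
Normalized counts of the 60 genes on a log axis, filled symbols for set2d and open symbols for WT, circles for replicate 1 and squares for replicate 2, with the floor of 10 dashed. The snR30 symbols of set2d lie at 22786 and 20099, those of WT at 3942 and 4787, and most other genes lie between 10 and 1000 with the groups interleaved.

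Most of these genes did not pass the test between set2d and WT. Of the 56 above the floor in at least 2 libraries and so tested, 4 were higher in set2d at an adjusted p under 0.05 (limma, 7.14%), where 11.6% of all 6633 genes tested were higher, and 1 was lower (1.79%), where 2.77% of all were. Without adjustment 7 were higher and 3 lower, against 18.6% and 9.62% of all genes tested. Both set2d libraries lay above both WT libraries for 15 of the 56 and below for 13, where the shares over all genes tested were 31.5% and 26.2%. These shares are no larger than the background. The median log2 change of the 56 was −0.05 (24 positive, 32 negative), against 0.01 over all genes tested. The spread within a group was wide at these levels. For the 56 genes the replicates of set2d differed by a median of 0.44 on the log2 scale and those of WT by 0.31, while over all genes tested the medians were 0.21 in set2d and 0.13 in WT.

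The gene with the clearest difference was snR30 (SPSNORNA.20, chromosome I), the box H/ACA RNA that in budding yeast is needed for 18S ribosomal RNA and guides no known modification. It read 22786 and 20099 in set2d, against 3942 and 4787 in WT. Both set2d libraries were far above both WT libraries, and the gap between groups was much wider than that within either. The log2 change was 2.30 (SE 0.14, adjusted p = 5.88e-05, limma), and the call was kept under each alternative tried, with changes of 2.16 to 2.44. Per 100 bases snR30 had 6990 and 6165 in set2d, against 1209 and 1468 in WT, the highest of the 60 genes in each library. It shares no bases with another gene of the table. Its nearest neighbours, omh6 and pdi4 on the other strand, had changes of 0.03 (adjusted p = 0.932) and 0.53 (adjusted p = 0.0696).

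Another box H/ACA RNA, sno12 (also snR99, SPSNORNA.32, chromosome III), read 1972 and 1266 in set2d, against 596 and 788 in WT. Both set2d values lay above both WT values, although the set2d libraries also stood apart from each other. The log2 change was 1.21 (SE 0.27, adjusted p = 0.0224, limma). This call was lost without set2d 1 (adjusted p = 0.156), set2d 2 (0.0579) or WT 1 (0.108), and also after quantile normalization (0.0513), without the trend (0.0576) and without the filter on low values. No gene of the table overlaps it, and the neighbouring genes SPNCRNA.467 and mis16 each had a change of −0.04.

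The third, snR36 (SPSNORNA.39, chromosome II), also of the box H/ACA class, read 211 and 310 in set2d, against 105 and 67.3 in WT. The groups did not overlap. The log2 change was 1.60 (SE 0.37, adjusted p = 0.0249, limma), and the call was lost without set2d 1, set2d 2 or WT 2, after quantile normalization (0.0540) and without the filter on low values. On the opposite strand, exons of psd1, a phosphatidylserine decarboxylase gene, cover 52.4% of snR36. psd1 read 12186 and 8917 in set2d, against 10136 and 8718 in WT (change 0.15, adjusted p = 0.612). The strand setting of the counting is not given, so reads of the overlap cannot be assigned to either gene with certainty. Its neighbours were not called: rem1, a meiotic cyclin gene on the same strand, read 73.3 and 75.5 in set2d, against 194 and 117 in WT (−1.02, adjusted p = 0.120), and SPBC1E8.02 had a change of 0.15.

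The fourth gene called higher, sno16 (SPSNORNA.33, chromosome II), belonged to neither class. It read 1284 and 979 in set2d, against 568 and 566 in WT. Both set2d libraries were above the WT pair, which were nearly equal. The log2 change was 0.98 (SE 0.23, adjusted p = 0.0267, limma). The call was lost when any 1 of the 4 libraries was left out, after quantile normalization (0.0593) and without the filter on low values. Its neighbours SPNCRNA.1597 (−0.13) and php5 (−0.25), a subunit of the CCAAT-binding factor, were not called. The annotation places a non-coding RNA that is not in the table on the strand opposite sno16, and reads from the 2 strands cannot be told apart without the strand setting.

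The only gene of the 60 called lower was snoR54b (SPSNORNA.14, chromosome I). It stood at the floor of 10 in set2d 1 and at 18.6 in set2d 2, against 407 and 132 in WT. Both set2d libraries were close to the floor, and the WT libraries were far above it but also far apart from each other. The fitted log2 change was −4.09 (SE 0.59, adjusted p = 0.00312, limma), and it was the most negative of the 6633 genes tested. With set2d 1 at the floor, the true size of the difference is not known. The call was lost without set2d 1 (adjusted p = 0.0894), set2d 2 (0.0556) or the filter on low values (0.0937), with changes of −4.90 to −3.27 over the alternatives. No gene overlaps snoR54b, and its neighbour fio1, a multicopper oxidase for iron uptake, had a change of 0.41 (adjusted p = 0.332). The neighbour on the other side, SPRRNA.20 on the opposite strand, read 32.9 and 10.9 in set2d, against the floor of 10 in both WT libraries (adjusted p = 0.381). The gene snoR54, named for the same number but on chromosome II, in an intron of gua1, read 37.2 and 49.8 in set2d, against 44.2 and 44.5 in WT (change −0.04).

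**Figure D2:**
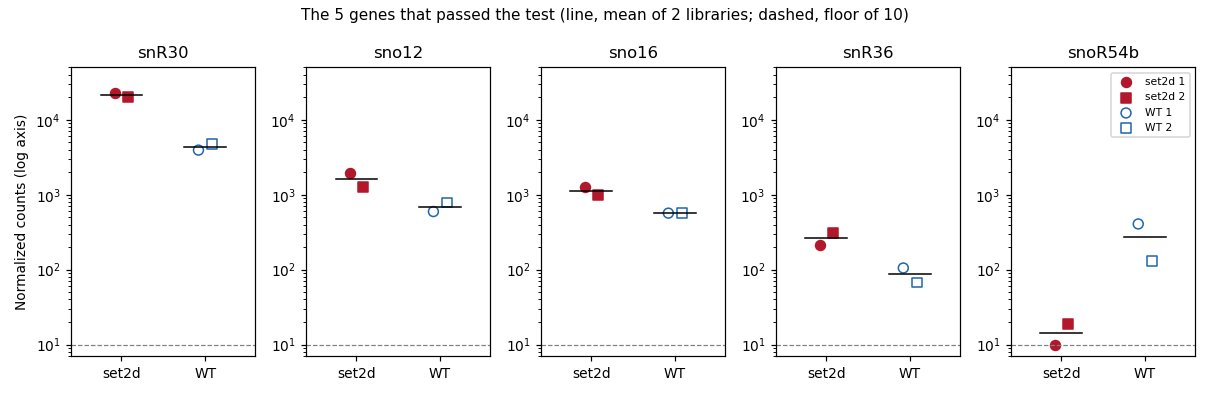
Normalized counts (log axis) of the 5 genes that passed the test, with set2d left of WT, the mean of 2 libraries as a line and the floor of 10 dashed. snR30, sno12, sno16 and snR36 lie higher in both set2d libraries, and snoR54b lies at 10 and 18.6 in set2d, against 407 and 132 in WT.

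The sequences of the 5 called genes and of snoR54 are given so that the RNAs behind the calls can be compared. Of snR30 (326 bases) the last 300 bases are shown. They are RefSeq's gene sequences in ASM294v3, found by locus tag and written 5′ to 3′ as DNA on the gene's strand (minus for snR36 and plus for the others). Capitals mark an ACA that lies 3 bases from the end, or CTGA in snoR54; sno16 and snoR54b hold neither motif in these places.
snR30, last 300 bases: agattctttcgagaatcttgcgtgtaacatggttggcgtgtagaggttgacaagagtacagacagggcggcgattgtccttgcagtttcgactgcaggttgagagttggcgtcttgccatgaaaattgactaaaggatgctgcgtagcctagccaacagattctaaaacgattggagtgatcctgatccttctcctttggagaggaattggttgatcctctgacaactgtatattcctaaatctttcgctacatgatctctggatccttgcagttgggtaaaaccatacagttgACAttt
sno12: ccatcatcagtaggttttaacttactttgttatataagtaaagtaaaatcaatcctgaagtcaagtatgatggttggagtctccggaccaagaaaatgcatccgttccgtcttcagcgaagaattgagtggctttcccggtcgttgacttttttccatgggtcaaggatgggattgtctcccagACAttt
snR36: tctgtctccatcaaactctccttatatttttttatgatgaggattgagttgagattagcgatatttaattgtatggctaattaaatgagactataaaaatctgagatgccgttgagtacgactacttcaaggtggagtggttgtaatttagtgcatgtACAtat
sno16: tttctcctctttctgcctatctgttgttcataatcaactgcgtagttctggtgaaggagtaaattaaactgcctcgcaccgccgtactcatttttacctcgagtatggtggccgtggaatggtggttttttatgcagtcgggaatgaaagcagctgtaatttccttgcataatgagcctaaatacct
snoR54b: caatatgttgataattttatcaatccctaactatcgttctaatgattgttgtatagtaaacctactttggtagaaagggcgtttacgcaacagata
snoR54: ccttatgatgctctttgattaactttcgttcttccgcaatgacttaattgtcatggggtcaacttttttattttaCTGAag

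Among the 60 genes, 11 (18.3%) held TATAAA with its first base 25 to 35 bases before the annotated start on the gene's strand, as did 296 of 12544 other annotated genes (2.36%). By class these were 5 of the 20 box H/ACA genes, 4 of the 5 spliceosomal snRNAs, 1 of the 29 box D genes and 1 of the U3 pair. Of the genes called, snR30 and snR36 held it and sno12, sno16 and snoR54b did not. The 60 bases before the start of the 2 called genes and of the U1 and U5 genes, which were at the floor in all libraries, are given with TATAAA in capitals (RefSeq, ASM294v3). Its first base lies 32 bases before the start in snR30, 28 in snR36, 33 in snu1 and 31 in snu5. A match does not show that the letters are used.
snR30, 60 bases upstream: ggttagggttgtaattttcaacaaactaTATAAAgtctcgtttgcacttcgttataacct
snR36, 60 bases upstream: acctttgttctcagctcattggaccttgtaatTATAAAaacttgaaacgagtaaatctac
snu1, 60 bases upstream: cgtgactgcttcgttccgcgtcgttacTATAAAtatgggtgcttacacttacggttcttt
snu5, 60 bases upstream: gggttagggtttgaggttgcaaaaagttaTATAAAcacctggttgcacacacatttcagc

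Box H/ACA genes lay mostly on the positive side and box D genes mostly on the negative side, but few single genes passed the test. Of the 20 box H/ACA genes 3 were higher (15%, near the 11.6% over all genes tested) and 0 lower (limma; 5 and 1 without adjustment), with a median log2 change of 0.43, 14 positive and 6 negative. In 10 of them both set2d libraries lay above both WT libraries and in 3 below, where the shares over all genes tested were 31.5% and 26.2%. Of the 28 box D genes tested 0 were called in either direction (limma; 1 higher and 1 lower without adjustment), with a median of −0.24, 6 positive and 22 negative, and 3 and 8 with the groups apart. Over all genes tested, 3399 changes were positive and 3234 negative. After quantile normalization the medians were 0.21 for box H/ACA (11 positive) and −0.50 for box D (24 negative). Over all alternative settings the medians ranged between 0.20 and 0.55 for box H/ACA and between −0.50 and −0.09 for box D. The number of positive box H/ACA genes ranged from 11 to 16, and that of negative box D genes from 19 (without WT 2 or without set2d 1) to 24. The median level per 100 bases of the box H/ACA genes was 146 and 186 in set2d, against 120 and 150 in WT, and that of the box D genes was 97.1 and 98.9 in set2d, against 116 and 117 in WT. The difference between the classes was not tested. The classes also differ in length, which was not separated from class. Box D genes were counted singly, although some share a longer RNA and may not vary independently. The 22 negative ones include all 5 within the longer RNA SPNCRNA.659 and all 3 within SPNCRNA.723. Of the 8 box D genes with the groups apart and set2d lower, 3 lie in the first of these RNAs and 1 in the second. Shared transcripts were not separated from class either.

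**Figure D3:**
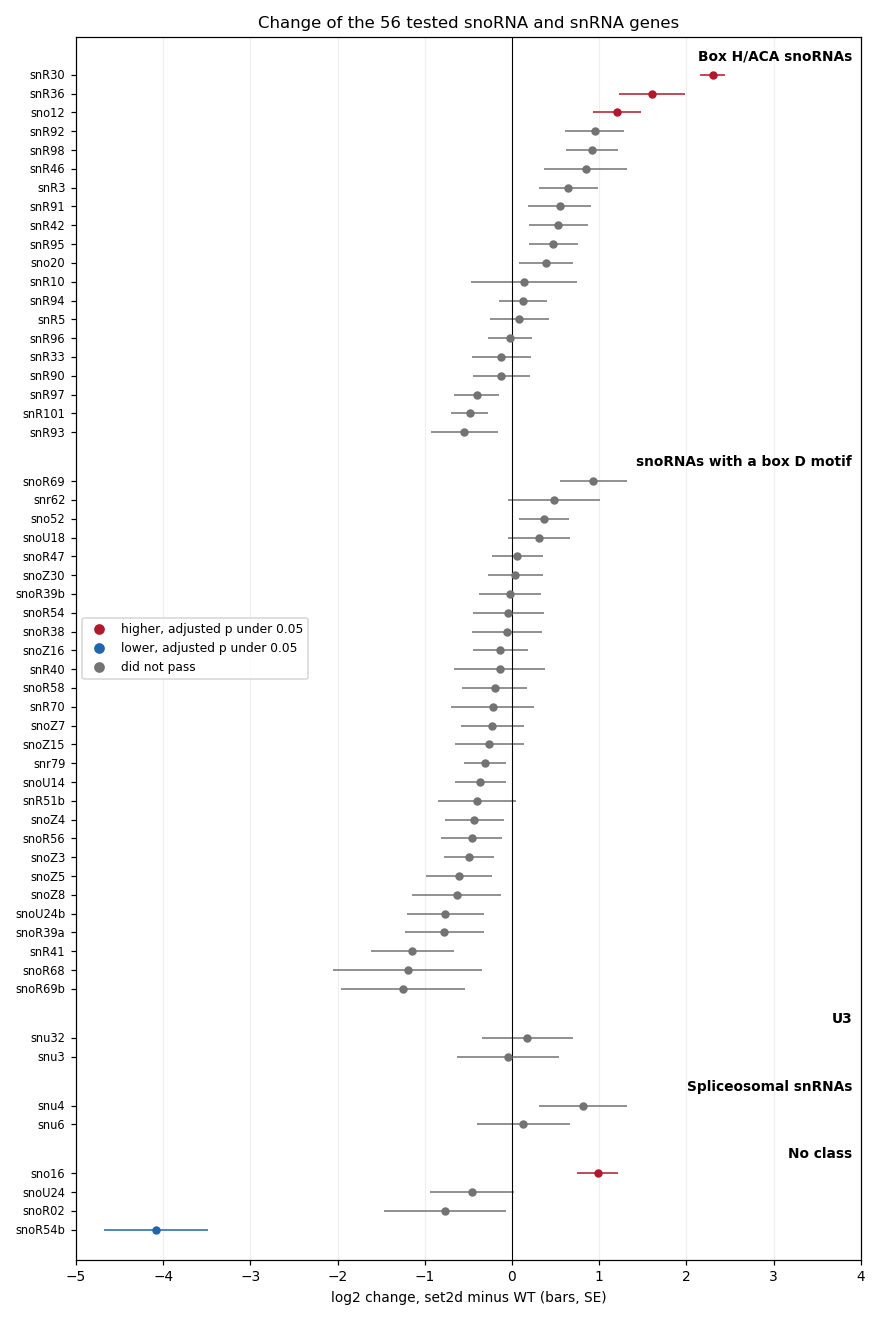
Log2 change (set2d minus WT, with SE) of the 56 genes tested, by class, in red where higher and blue where lower at an adjusted p under 0.05. Box H/ACA genes have 14 positive and 6 negative changes (median 0.43) and box D genes 6 positive and 22 negative (median −0.24).

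Several further box H/ACA genes lay higher in both set2d libraries without passing. snR98 read 336 and 262 in set2d, against 155 and 159 in WT (change 0.92, adjusted p = 0.0829, limma). snR95 read 636 and 988 in set2d, against 514 and 634 in WT (0.47, adjusted p = 0.314), and snR42 321 and 201 in set2d, against 193 and 159 in WT (0.53, adjusted p = 0.350). In all 3 the groups did not overlap, in snR95 by a narrow margin, but in snR95 and snR42 the set2d libraries differed widely from each other. snR46 read 226 and 580 in set2d, against 154 and 264 in WT (0.84, adjusted p = 0.286), and here the groups overlapped.

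Other box H/ACA genes showed no such separation or lay the other way. snR96 was nearly the same in both groups, at 1962 and 1361 in set2d, against 1964 and 1401 in WT (change −0.02). In that gene, replicate 1 was higher than replicate 2 in each strain. snR101 lay lower, at 748 and 829 in set2d, against 1080 and 1127 in WT (−0.49, adjusted p = 0.172, limma). snR97 read 440 and 605 in set2d, against 743 and 629 in WT (−0.41, adjusted p = 0.354). For both of these the set2d libraries were below the WT libraries, though for snR97 by little. It lies within the long RNA SPNCRNA.617 and opposite rad8, a DNA-repair ubiquitin ligase gene, which read 11445 and 12689 in set2d, against 12496 and 12476 in WT. snR96 is 70.1% covered by exons of tim17 on the other strand (0.16), a mitochondrial import gene, and snR90 21.7% by those of not3 (−0.05), a Ccr4-Not subunit. snR90 (364 and 574 in set2d, against 399 and 621 in WT), snR5 (290 and 550, against 380 and 373) and snR94 (324 and 386, against 352 and 298) had overlapping groups and changes of −0.12, 0.09 and 0.13.

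None of the box D genes with the higher levels passed the test. U14 (snoU14), which both guides methylation and is needed for 18S RNA in budding yeast, read 669 and 432 in set2d, against 785 and 610 in WT (change −0.36, adjusted p = 0.458, limma). snr79 read 444 and 471 in set2d, against 606 and 530 in WT (−0.31), and sno52 354 and 506 in set2d, against 307 and 349 in WT (0.37). U14's groups overlapped, while snr79 lay below WT and sno52 just above WT in both set2d libraries. Both lie fully within exons of a gene on the other strand, gpi12 (GPI-anchor synthesis) for snr79, with a change of −0.39, and taf9 (a TFIID and SAGA subunit) for sno52, with 0.18. snoZ16 read 171 and 245 in set2d, against 213 and 237 in WT (−0.14), and snoR47 234 and 211 in set2d, against 235 and 193 in WT (0.06).

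Grouped by position, the genes had few calls in any group. Of the 60 genes 15 lay within a longer RNA on the same strand, 10 in introns of coding genes, 7 opposite a coding exon, 10 opposite an annotated non-coding RNA alone, and 18 overlapped nothing annotated. The 15 within longer RNAs had 0 calls (limma; 1 higher and 1 lower without adjustment) and a median log2 change of −0.41, and the 10 in introns had 0 calls (0 and 0 without adjustment) and a median of −0.13. The 16 tested genes without an overlap had 2 calls higher (12.5%), 1 lower (6.25%) and a median of 0.11, where 11.6% of all genes tested were higher and 2.77% lower. Opposite a coding exon, 1 of the 7 was higher (14.3%) and 0 lower, with a median of −0.02 (limma; 1 and 0 without adjustment). Opposite a non-coding RNA alone, 1 of the 8 tested was higher (12.5%) and 0 lower, with a median of 0.48 (limma; 3 and 1 without adjustment). Without adjustment the shares over all genes tested were 18.6% and 9.62%. No gene of the 60 lay within 100 kb of a chromosome end, and 2 (snR97 and snoR69) lay between 100 and 200 kb.

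The snoZ cluster is 1 longer RNA (SPNCRNA.659) that holds 5 box D snoRNAs, all of which had negative fitted changes. snoZ4 read 424 and 705 in set2d, against 577 and 941 in WT (−0.43), and snoZ3 read 285 and 283 in set2d, against 468 and 340 in WT (−0.49). snoZ5 (−0.61), snoZ7 (−0.23) and snoZ8 were read because they belong to the cluster. snoZ8 was at the floor of 10 in both set2d libraries, against 13.8 and 17.4 in WT, so the size of its difference is not known. In 3 of the 5, snoZ8 among them, the set2d pair was below the WT pair, as it was for 26.2% of all genes tested. Of all 6633 genes tested, 3234 had negative changes. None passed the test (limma; 0 without adjustment), and the longer RNA itself read 5619 and 6545 in set2d, against 6133 and 7921 in WT (−0.20, adjusted p = 0.465). Reads of a snoRNA and of the RNA that contains it cannot be told apart by position. The same holds for the cluster in SPNCRNA.723, chosen likewise for its arrangement, whose snR41 (−1.14), snR51b (−0.41) and snR70 (−0.22) had negative changes and 0 calls (limma; 1 lower without adjustment). snR41 read 14.9 and 19.7 in set2d, against 30.4 and 47.1 in WT.

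Of the 10 genes in introns 0 were called, and of their hosts 1 was higher, near the 11.6% over all genes tested. The hosts read between 3120 and 585498 over the libraries and their snoRNAs between 13.1 and 262. The host rlp7, a ribosome-assembly factor, was the 1 host called, at 47157 and 65688 in set2d, against 34343 and 29819 in WT (log2 change 0.80, SE 0.16, adjusted p = 0.0151, limma). Both set2d libraries were above both WT libraries. Its intronic snoR39a, taken for its place and not for its level, read 21.2 and 16.4 in set2d, against 34.5 and 29.7 in WT (−0.78, SE 0.45, adjusted p = 0.305), and both set2d libraries were below both WT libraries. snoU24b had a change of −0.77 in cpc2 (0.07), the RACK1 homologue of the ribosome, and snoU24 of −0.46 in spt20 (0.17), a SAGA subunit. snoZ15 had −0.26 in the prefoldin gene pfd1 (0.10), snoR58 −0.20 in ade4 (−0.15) and snoR54 −0.04 in gua1 (0.04), both enzymes of purine synthesis. snoR39b had −0.02 in rpl701 (−0.10), which encodes a large-subunit ribosomal protein, snoR38 −0.06 in SPAC29A4.02c (−0.07), snoR47 0.06 in fta3 (0.16), a kinetochore gene, and snoU18 0.31 in ero11 (−0.14), an endoplasmic reticulum oxidase. The median was −0.13 for the snoRNAs and 0.05 for the hosts.

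**Figure D4:**
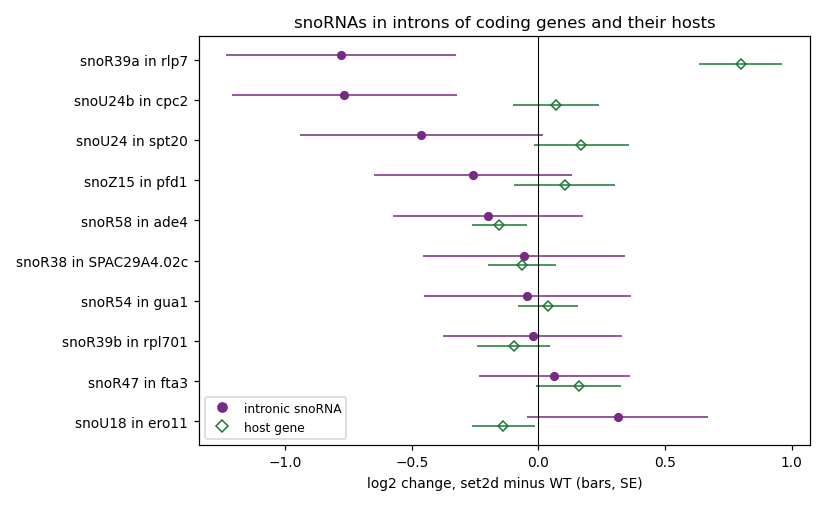
Log2 change (set2d minus WT, bars SE) of 10 intronic snoRNAs (filled circles) and of the genes whose introns hold them (open diamonds). The hosts range from −0.15 to 0.80 and the snoRNAs from −0.78 to 0.31, with the widest gap between snoR39a and rlp7.

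A gene of the table lay on the opposite strand of 9 of the 60. One such pair, read after its values were seen, was snR92 and the long non-coding RNA SPNCRNA.1487, which covers all of it. SPNCRNA.1487 read 1734 and 1804 in set2d, against 905 and 1032 in WT (log2 change 0.87, adjusted p = 0.0211, limma). snR92 read 200 and 169 in set2d, against 109 and 83.1 in WT (0.95, adjusted p = 0.107). Both genes lay higher in both set2d libraries, and without the counting's strand setting their reads cannot be told apart. Among all SPNCRNA identifiers, the main class of non-coding RNA genes in the table, 188 of 1440 tested were higher (13.1%) and 49 lower (3.40%), with a median change of 0.09.

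The spliceosomal snRNAs, which are among the abundant RNAs of a cell, were at or near the floor in these libraries. The U1 gene snu1 and the U5 gene snu5 were at the floor in all 4, and the U2 gene snu2 was above it in set2d 1 alone, so these were not tested. The U4 gene snu4 read 20.2 and 15.3 in set2d, against the floor of 10 in both WT libraries (adjusted p = 0.334, limma). The U6 gene snu6 read 15.9 and 10.4 in set2d, against 13.8 and the floor of 10 in WT (change 0.13, adjusted p = 0.910). Whether these levels describe the cell's content of mature snRNA is not known, since the labels do not state whether the RNA was selected or depleted before sequencing.

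The U3 genes were above the floor but without a difference past the test. snu3 read 64.8 and 32.8 in set2d, against 78.7 and 28.8 in WT (change −0.05, SE 0.58, adjusted p = 0.971, limma). snu32 read 74.4 and 56.9 in set2d, against 95.3 and 34.8 in WT (0.18, SE 0.52, adjusted p = 0.868). In each strain replicate 1 was above replicate 2 for both genes, and the groups overlapped. The copies are alike at least in part. From snu32, BLAST gave 91.4% identity over 257 aligned bases, in a hit listed with both snu3 and SPNCRNA.2435. From snu3 it gave 87.3% over 134 bases (52.3% of its length). How much of the annotated snu3 gene is alike thus differed between the searches. Reads could be split between the copies or dropped. No gene of the 60 had another copy in the genome at 95% identity or more over at least 50% of its length.

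Proteins that bind, build or trim these RNAs were read from 8 lists with 76 measured genes. Of the 76, 9 were higher (11.8%) and 0 lower (limma; 14 and 2 without adjustment), near the 11.6% and 2.77% over all genes tested, with a median log2 change of 0.07. The 9 were spread unevenly over the lists. The 5 genes of the list of U3-specific proteins (imp3, imp4, mpp10, rrp9 and sof1) were all higher (100%, median 0.70). The box C/D core proteins, which U3 shares with other snoRNPs, were listed apart and were not called, nor were the U3 RNA genes. The lists were drawn up with earlier results of these data known, imp4 among them, so this count is a description and not independent evidence.

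Imp4, which with Imp3 and Mpp10 forms a module of the U3 particle, read 22517 and 22615 in set2d, against 9114 and 7265 in WT (log2 change 1.47, adjusted p = 0.0004, limma). Both set2d libraries were above both WT libraries in each of the 5 genes, where the share over all genes tested was 31.5%. This too describes a list drawn up with earlier results known and is not independent evidence. Rrp9, a U3-specific protein, averaged 14837 ± 2251 in set2d and 8744 ± 314 in WT (SD, n = 2 libraries each; 0.75, limma adjusted p = 0.0081), and imp3 10035 ± 511 and 6178 ± 725 (0.70, adjusted p = 0.0106). Smaller changes were those of sof1 (0.55, adjusted p = 0.0393), a processome component, and mpp10 (0.46, adjusted p = 0.0339). A gene on the opposite strand covers 95.2% of mpp10. The number of the 5 called was 1 without set2d 1, 2 without set2d 2, 3 without WT 1, 2 without WT 2, 1 without the filter on low values, and 3 without the trend or after quantile normalization, and imp4 was called in each of these.

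Core proteins of the guide RNA particles did not pass. Fibrillarin (fib1) read 102546 and 107634 in set2d, against 96272 and 104110 in WT (0.07), and snu13 had a change of 0.20. The dyskerin gene cbf5 read 73603 and 74211 in set2d, against 76567 and 80781 in WT (−0.09), and gar1 had 0.06. Of the lists of box C/D core (4 genes), box H/ACA core (4), snoRNP assembly (5, with the helicase genes rvb1 at 0.16 and rvb2 at −0.05), SMN complex (4, gem8 at 0.10 and smn1 at −0.01) and snRNP-specific proteins (16, spp42 at −0.12 and prp3 at 0.16), 0 genes were called. By limma without adjustment, the assembly list had 1 higher and 0 lower, the snRNP-specific list 1 and 1, and the other lists 0 and 0. Over all genes tested 11.6% were called higher and 2.77% lower (18.6% and 9.62% without adjustment). Genes on the opposite strand cover 100% of cbf5, 63.0% of gar1, 59.1% of prp3 and 30.4% of spp42. Without the strand setting, reads of these overlaps cannot be assigned with certainty.

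Among the 14 Sm and Lsm proteins, the rings that bind snRNAs, smd3 alone was called, at 15667 and 16213 in set2d, against 9623 and 9203 in WT (0.76, adjusted p = 0.0031, limma), while the list's median was −0.15. Of 24 genes for capping, 3′ processing and decay, 3 were higher (12.5%) and 0 lower (limma; 6 and 1 without adjustment), where 11.6% of all genes tested were higher (18.6% without adjustment). The La protein gene sla1, whose product binds the ends of RNA polymerase III transcripts, averaged 59547 ± 742 in set2d and 40263 ± 172 in WT (SD, n = 2 libraries each; 0.56, limma adjusted p = 0.0088). The helicase genes sen1 (0.66, limma adjusted p = 0.0163) and mtr4 (0.47, adjusted p = 0.0233), the second a cofactor of the nuclear exosome, were also higher. Without the trend sla1 (limma adjusted p = 0.0520), sen1 (0.0712) and mtr4 (0.0907) were not called. Without the filter on low values sen1 (limma adjusted p = 0.118) and mtr4 (0.0662) were not called. With 1 library left out, the changes were 0.55 to 0.58 for sla1, 0.51 to 0.81 for sen1 and 0.40 to 0.53 for mtr4. Opposite-strand genes cover 26.5% of mtr4, where the same limit on assigning reads holds. Outside the naming rule, and read after their values were seen, pac1, the RNase III that trims snoRNA precursors, had 0.68 (adjusted p = 0.060), and tgs1, which modifies the caps of these RNAs, −0.58 (adjusted p = 0.061).

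**Figure D5:**
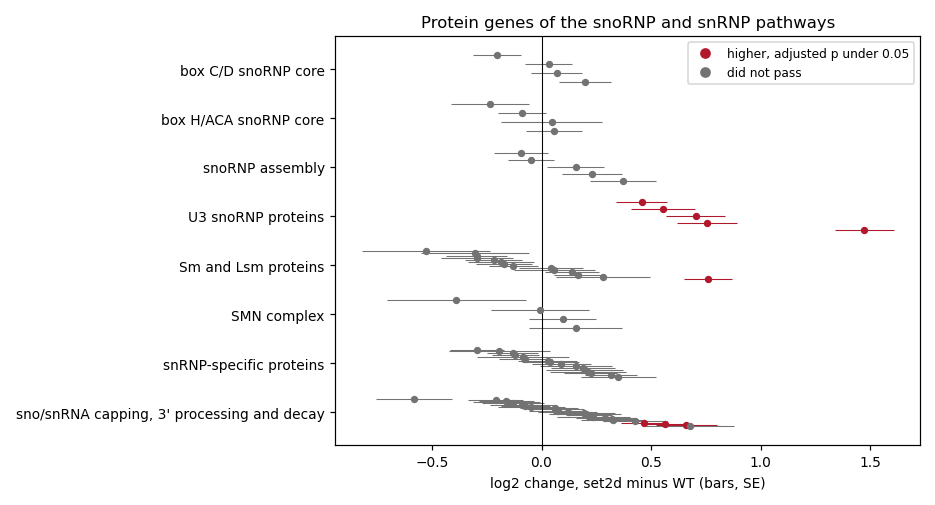
Log2 change (set2d minus WT, bars SE) of 76 protein genes in 8 lists, red where higher at an adjusted p under 0.05. The 5 genes of the U3 list are red, from 0.46 to 1.47, with 1 of 14 Sm and Lsm genes and 3 of 24 genes for capping, 3′ processing and decay.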

How the data were processed

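The deposited table holds log2 values per gene for 2 set2d and 2 WT libraries of total RNA (extracted with TRIzol and treated with DNase I, per the labels' protocols). The submitters' processing notes name STAR 2.5.4b, featureCounts 1.5.0-p1 and ASM294v2. How the authors normalized the deposited log2 values, the annotation, the strand setting and any selection of polyadenylated RNA are not stated there or in the labels, and no value lies below log2 of 10. A floor compresses differences of low genes.

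Here limma 3.58.1 (R 4.3.3) with a mean-variance trend was fitted to the log2 values of all genes above the floor in at least 2 of the 4 libraries (6633 of 6986; 353 left out), without a replicate block, and p-values were adjusted over all of them (Benjamini-Hochberg, two-sided, 0.05). Residual degrees of freedom were 2 and the prior added 6.16. The scripts were tested on simulated data. Gene sequences, overlaps and names came from RefSeq's ASM294v3 by locus tag (6840 identifiers matched, 146 did not), and copies from BLAST 2.17.0. No coordinates are printed, since the builds differ. Named were all snRNA-prefixed genes, all that passed, the 20 snoRNAs with the highest mean log2 value, genes overlapping these, and of each protein list up to 4 that passed or else the 2 with the highest mean. The genes and lists were chosen with earlier results of these data known. Alternatives were quantile normalization, a pseudocount of 10, no trend, other filters, a replicate block and leaving out each library.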

Additional observations from a re-analysis of the deposited data

How the results depend on the processing

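With 2 libraries a group, the calls depend on the spread assumed for each gene. Over all genes, 767 were higher and 184 lower. These counts were 499 and 103 without a trend, 177 and 21 without the filter on low values, 1380 and 847 with a replicate block, and between 324 and 488 higher and 45 and 86 lower when 1 library was left out. Quantile normalization gave 574 higher and 275 lower, and it moved the median change of all genes to −0.07 and that of the 56 snoRNA and snRNA genes to −0.37, against 0.01 and −0.05. Of the snoRNA and snRNA genes, 4 were higher and 1 lower; the counts were 1 and 0 without the filter, 1 higher after quantile normalization, 7 and 4 with the block, 0 lower when a gene had to be above the floor in all 4 libraries, and 1 to 2 higher and 0 to 3 lower with 1 library left out. Without a trend 6 were higher and 1 lower. Added there were snR98 (limma adjusted p = 0.0352), snR92 (0.0456) and snoR69 (0.0312), while sno12 was lost (0.0576). snR98 and snR92 were also called with the block. In each of these settings snR30 was called higher. Of the protein genes, 9 were higher and 0 lower; the higher count was 4 without a trend, 3 without the filter, 16 with the block and 3 to 6 with 1 library left out, and the lower count was 1 after quantile normalization and 3 with the block. The causes were not tested. The labels give libraries of the same number in each strain a shared prefix but do not say what it stands for, so the libraries were not treated as paired. Differences of replicate 2 minus 1 correlated across genes between the strains (r = 0.451), which is a hint from the data alone.

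Genes near 0 changed sign. After quantile normalization snR5 had −0.090, snR94 −0.010, snoR47 −0.19, snu32 −0.17 and snu6 −0.16. With 1 library left out, snR96 ranged from −0.29 to 0.24, snR90 from −0.45 to 0.21, snR5 from −0.38 to 0.55, snR94 from −0.00041 to 0.25, snoR47 from −0.080 to 0.21, snoZ16 from −0.39 to 0.12, snu32 from −0.55 to 0.90, snu3 from −0.77 to 0.68 and snu6 from −0.18 to 0.44. The number of genes above a level of 20 or 50 in place of 10 stayed within 1.5 times the count above the floor in each library. For a gene with libraries at the floor, the size of a difference is not known.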

Other observations

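By RefSeq's annotation 6 genes of snoRNAs or snoRNA precursors carry an SPNCRNA identifier and so were not among the 60. Of these, SPNCRNA.1483 and SPNCRNA.1650 are named as snoRNA primary transcripts. Among the 6, 0 were called (limma; 0 higher and 1 lower without adjustment). Over all genes tested 11.6% were called higher and 2.77% lower (18.6% and 9.62% without adjustment). snR191 read 48.9 and 87.5 in set2d, against 53.9 and 70.3 in WT, snoR61 906 and 2126 in set2d, against 1306 and 3150 in WT, and SPNCRNA.498, a candidate snoRNA, 86.0 and 93.6 in set2d, against 166 and 113 in WT (−0.61, adjusted p = 0.304). In snoR61, replicate 2 was well above replicate 1 in each strain. SPNCRNA.1650, which contains snoR68, read 444 and 490 in set2d, against 788 and 834 in WT (log2 change −0.80, adjusted p = 0.0550), so both set2d libraries were lower without passing the test. snoR68 itself read 13.8 and the floor of 10 in set2d, against the floor of 10 and 72.3 in WT.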
